A study of Rattus norvegicus with 6 samples.

Results

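Olfactory receptor genes with a measurable probe signal in the rat renal cortex are described here. Of 1168 olfactory receptor genes that the array carries, 274 (23.5%) were detected, meaning that at least 1 of the gene's probes was well above its local background in every one of the 3 rats of a group, in at least 1 group. The members were selected on this signal, with genes taken by rat receptor symbol (Or followed by family, subfamily and member, or the older Olr followed by a number), so their detection and levels are a description and no test of expression. The symbol rule also caught Olr1, which the gene table gives as the oxidised LDL receptor and not an odorant receptor. It was set apart and is in none of the counts. By the same detection rule, 12066 of the 14476 other genes with a symbol (83.4%) were detected.

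The study used male rats of the Sprague-Dawley stock (Crl:CD(SD), 5 weeks old when bought) and compared their renal cortex after 4 weeks of corn oil, the vehicle, with the same tissue after carbon tetrachloride at 100 mg/kg/day for 4 weeks. Carbon tetrachloride is a solvent that is turned into reactive radicals by cytochrome P450 enzymes and is best known as a liver toxicant. Each group held 3 rats, and total RNA of each rat was labelled with Cy3 and hybridised to its own 1-colour Agilent array. The series' design text names benzyl acetate as the treatment, whereas its title, sample labels and treatment protocol all say carbon tetrachloride; the groups follow the latter.

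Olfactory receptors are G protein-coupled receptors and form the largest gene family of the rat genome. In a nasal sensory neuron a single receptor is expressed at the cell surface, where an odorant activates the G protein Golf (Gnal), adenylyl cyclase 3 (Adcy3) and a cyclic nucleotide-gated channel (Cnga2, Cnga4, Cngb1). Some members are also transcribed outside the nose. In the kidney the best known is Olfr78 of the mouse, a receptor for short-chain fatty acids found in the wall of renal arterioles, whose rat counterpart is listed as Olr59. Most receptors have their coding sequence in a single exon and lie in clusters of similar genes, so a probe may be shared by near-identical copies.

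The following sequences from RefSeq (GRCr8) show how similar some of these genes are at the first 50 bases from the annotated start, which are coding bases. Capitals mark bases that differ within a pair. Or2ak6 has the brightest probe of all members, and its neighbour Or2ak6c differs from it at 1 of the 50 bases. Or2ak6 lies at chr10:43699264-43699313 and Or2ak6c at chr10:43649330-43649379, both on the plus strand. Olr1454 (chr10:43970911-43970960) and Or2t44b (chr10:43936408-43936457), also on the plus strand, differ at 3 of the 50 bases. Or2n1j (chr20:375014-375063), the member with the second largest difference among those detected on every array, is identical here to Or2n1i (chr20:390803-390852), both on the minus strand. Over 300 bases, from 250 before to 50 after the start, Or2n1j and Or2n1i were only 46.7% identical. The same share was 95.7% for Or2ak6 with Or2ak6c and 94.3% for Olr1454 with Or2t44b.
Or2ak6: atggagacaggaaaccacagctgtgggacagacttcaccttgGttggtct
Or2ak6c: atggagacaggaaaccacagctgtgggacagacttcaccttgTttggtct
Olr1454: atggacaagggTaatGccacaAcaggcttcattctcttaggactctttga
Or2t44b: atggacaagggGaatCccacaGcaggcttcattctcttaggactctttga
Or2n1j: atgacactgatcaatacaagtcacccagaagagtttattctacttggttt
Or2n1i: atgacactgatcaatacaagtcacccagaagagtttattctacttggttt

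The arrays were alike in the share of probes above background and in their correlations. Between 68.5% and 72.1% of the 61537 probes were above background on an array, and arrays correlated with each other at 0.986 to 0.992 across probes. Marker genes fitted the labelled tissue, with 5 of 5 proximal tubule markers, 3 of 3 podocyte markers and 4 of 4 distal nephron markers detected. Of the olfactory sensory neuron markers, Omp, Cnga2 and Stoml3 were above background on 0 of 6 arrays, while the G protein subunits Gng13 and Gnal were detected on every array and Adcy3 on 5. The array of corn oil replicate 1 stood apart in markers of testis germ cells. On the log2 scale used throughout (log2 of the processed signal minus that array's 75th percentile of it), Tnp1 read 1.83 there and between -7.37 and -5.04 on the other 5 arrays. Odf1 read 0.54 against -8.11 to -7.68, Prm1 read 1.40 against -3.69 to -3.19, and Prm2 read -1.87 against -4.38 to -4.17. The part of that signal in the receptor results was not tested. Some results, though not all, are also given without this array.

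Of the 274 detected receptor genes, 217 were above background on all 6 arrays. A further 27 were complete in the corn oil group only, 24 of them with 2 and 3 with 1 of the carbon tetrachloride arrays above background. Another 30 were complete in the carbon tetrachloride group only, 22 with 2, 6 with 1 and 2 with 0 of the corn oil arrays above background. Single arrays gave a probe above background for 338, 274 and 339 receptor genes in corn oil replicates 1 to 3 and for 331, 313 and 297 in carbon tetrachloride replicates 1 to 3. Corn oil replicate 2 had the fewest. On at least 1 array 448 receptor genes were above background, and 720 were above it on none. Leaving out 1 array gave between 277 and 302 detected genes, because fewer arrays then had to agree.

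Detection stopped at faint signals. The faintest members were Or2ak4 at a mean of -5.89, Or6b1 and Or8g20b at -5.84, Or10h1 at -5.81 and Or4c31e at -5.77. The brightest receptor genes left out were Or2ag1 at -4.34, Or52l1 at -5.22, Or10d5j at -5.28, and Or8b12 and Or7h7 at -5.29. The 2 sets overlap in brightness, since the rule asks for a full group and not for a mean. Only 9 members reached the array's 75th percentile, 21 lay from -2 to 0, 82 from -4 to -2 and 162 under -4. The median member read -4.23, against 0.18 for other detected genes with a symbol. As probes differ in how strongly they bind, these values place the set in the range of the array and do not rank genes.

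**Figure D1:**
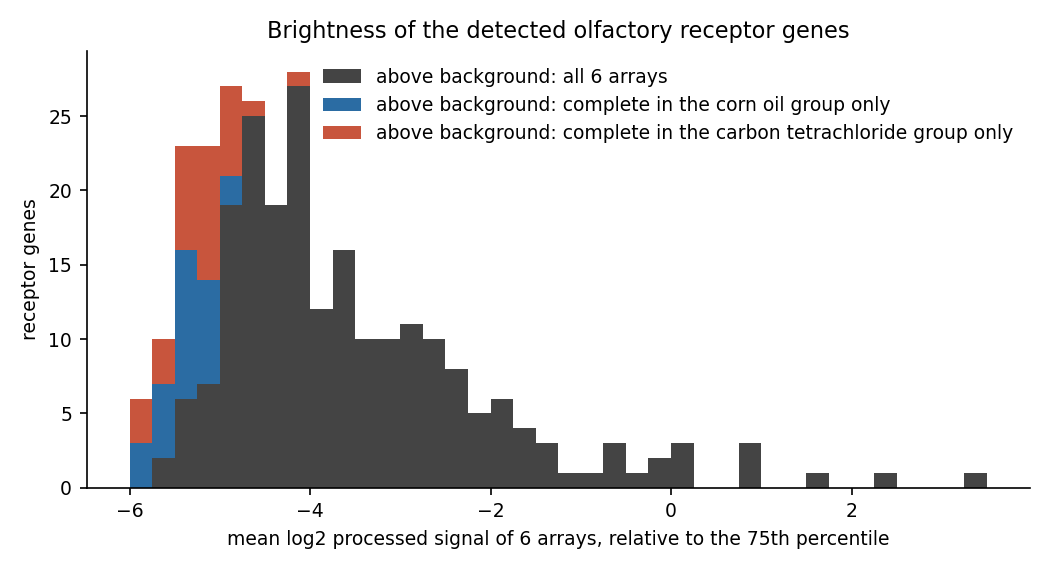
Histogram of the mean log2 processed signal over 6 arrays, relative to each array's 75th percentile, for the 274 detected receptor genes, with colours for detection on all 6 arrays or in 1 group only. Most members lie below -2, and those complete in 1 group only lie at the faint end.

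The 308 negative control spots, which carry no transcript's sequence, had median processed signals of 3.56 to 4.91 on the 6 arrays. Their 99th percentile was 17.2, 68.3 and 11.7 in corn oil replicates 1 to 3 and 7.9, 8.74 and 8.32 in carbon tetrachloride replicates 1 to 3. Of the 274 members, 114 exceeded that percentile on all 6 arrays. The high percentile of corn oil replicate 2 limits this count most, so it is no share of members clear of the control spots in general. If that percentile had been the rule for a full group, 374 receptor genes would have counted as detected.

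All main branches of the family were among the detected genes. Class I receptors (families Or51 to Or56), the branch shared with fishes, had 33 of 123 genes detected (26.8%), and class II receptors had 229 of 988 (23.2%). Genes with only an Olr number had 12 of 57 (21.1%). Among the larger families the share was highest in Or13, with 16 of 42 (38.1%), and Or2, with 38 of 118 (32.2%). Or5, the family with the most genes on the array, had 29 of 157 (18.5%). Or4 had 34 of 144 (23.6%), Or8 had 24 of 124 (19.4%), Or52 had 19 of 69 (27.5%) and Or51 had 12 of 43 (27.9%). These shares follow from the detection rule and were not tested.

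Most genes of the array had more than 1 probe, which allowed a measure that the rule did not need. Among receptor genes with 2 probes, 181 of 685 had at least 1 detected, but both were detected in only 17 of those 181 (9.39%). Among other genes with 2 probes, both were detected in 4098 of 4889 (83.8%). Among genes of like brightness the gap was smaller. Where the brighter probe lay between -4.92 and -3.13, the middle band of the members, both probes were detected in 8 of 92 receptor genes (8.7%) and in 290 of 663 other genes (43.7%). With detection on all 6 arrays required, the shares were 12 of 147 (8.16%) and 3962 of 4774 (83.0%). These are shares of genes on the same 6 arrays and carry no test. For most members, then, detection rests on 1 probe whose partner, if there was one, was not detected. The cause was not tested.

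**Figure D2:**
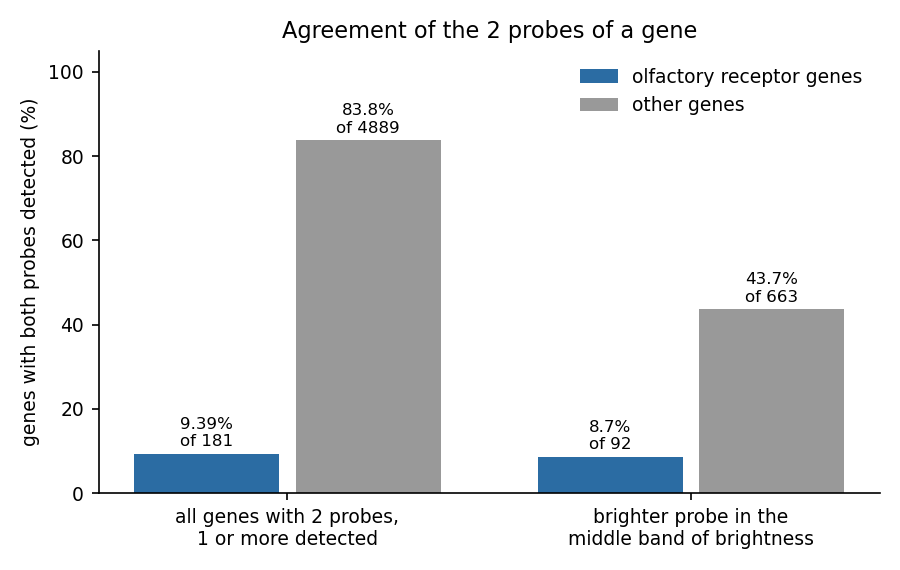
Percent of genes with both probes detected, among genes with 2 probes of which 1 or more was detected, for receptor genes and other genes (numbers above the bars are the percent and the genes counted). Receptor genes stood at 9.39% and other genes at 83.8%, and at 8.7% and 43.7% where the brighter probe lay in the middle band of brightness.

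The clearest exceptions were members with a pair of detected probes. There were 19 such genes, and both probes were above background on all 6 arrays in 14 of them. The probes of a gene differed by a median of 1.08 on the log2 scale, from 0.04 to 5.71. Or2ak6 had the brightest probe of any member, at 3.22, 3.26 and 3.25 in corn oil replicates 1 to 3 and 3.21, 3.25 and 3.40 in carbon tetrachloride replicates 1 to 3. Its second probe read 1.49, 1.40 and 1.49, then 1.52, 1.43 and 1.48. Both probes were therefore steady across all rats, and neither group stood higher. The only probe of the near copy Or2ak6c, whose first bases are shown above, was above background on 0 of 6 arrays and read -8.25 to -7.72.

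Olr59, the counterpart of mouse Olfr78 and human OR51E2, was also detected by both probes in every rat. The first read -1.87, -1.70 and -1.98 with corn oil and -1.95, -2.01 and -2.21 with carbon tetrachloride. The second read -3.34, -3.25 and -3.46, then -3.46, -3.68 and -3.68. The treated minus control difference was -0.21 ± 0.11 (SE) on the first probe, where the groups overlapped, and -0.26 ± 0.10 on the second, where they met. The adjusted p of the gene, taken from the first probe in limma's fit, was 0.812.

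Other receptors with a studied role outside the nose or a textbook ligand were faint or at background. Or51e1, the closest relative of Olr59 and a receptor for fatty acids, read -4.98, -4.98 and -5.06 with corn oil and -4.90, -4.76 and -4.63 with carbon tetrachloride, and its second probe was above background on 4 of 6 arrays. Or1d2, known from human sperm, was above background on all 6 arrays with 1 of 2 probes, at -5.48 to -5.21. Or10j5, a receptor for lyral, Or6a2, the octanal receptor, and Or55b4, Or2y1 and Or2v1 were above background on 0 arrays. A receptor at background may still be transcribed below what its probe can measure.

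Olr59 and Or2n1el1 are the only members with a listed window whose annotated start is not an ATG, so for them the table's window lies before a transcript start and not before the coding sequence. In 221 of 223 members with a window the annotated gene begins at its ATG, so the true promoter of those genes is not known from this table. The 250 bases before the start are shown for both exceptions because both recur in the results. Olr59 lies at chr1:166610904-166611153 on the minus strand and Or2n1el1 at chr20:63096-63345 on the plus strand (RefSeq, GRCr8, printed 5′ to 3′ in the direction of the gene). Capitals mark TAATTA, a homeodomain core, or TATAAA on either strand: 1 match in Olr59 and 0 in Or2n1el1.
Olr59: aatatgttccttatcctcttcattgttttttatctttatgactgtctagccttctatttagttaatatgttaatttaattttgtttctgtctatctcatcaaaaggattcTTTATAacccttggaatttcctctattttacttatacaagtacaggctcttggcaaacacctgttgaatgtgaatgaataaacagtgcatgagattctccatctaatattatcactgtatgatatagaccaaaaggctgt
Or2n1el1: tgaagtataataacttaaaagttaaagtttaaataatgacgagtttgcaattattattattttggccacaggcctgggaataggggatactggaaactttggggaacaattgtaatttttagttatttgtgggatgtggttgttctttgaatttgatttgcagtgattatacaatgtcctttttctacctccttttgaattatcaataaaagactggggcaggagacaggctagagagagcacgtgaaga

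Motif letters were counted in the windows of detected and undetected receptor genes. TAATTA, a palindrome and so the same on both strands, was in the 250 bases of 42 of 223 members (18.8%), in 139 of 763 other receptor genes (18.2%) and in 1356 of 27457 windows of all genes (4.94%). TATAAA on either strand was in 76 members (34.1%), in 283 other receptor genes (37.1%) and in 13.1% of all windows. The palindromic motif of the Ebf factors was in 0 members, in 0 other receptor genes and in 0.736% of all windows. The window lies before an ATG in 221 of 223 members and in 761 of 763 other receptor genes. The windows of all genes were not matched to these in position or base composition. Their shares are therefore no measure of enrichment at receptor genes. Matches of TAATTA and TATAAA can share their end letters. In 12 members the 300-base window was at least 90% identical to that of another receptor gene, among them Or2ak6 with Or2ak6c (95.7%) and Olr1454 with Or2t44b (94.3%).

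Neighbours in the gene table were compared for detected and undetected receptors, with no test. At least 1 direct neighbour was not a receptor gene for 51 of 274 members (18.6%) and for 151 of the 894 other receptor genes (16.9%). A detected neighbour of that kind was present for 23 members (8.39%) and 48 others (5.37%). A detected receptor gene lay directly beside 96 members (35.0%) and 322 others.

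The brightest 15 members were mostly steady from rat to rat. Or13l2 read 2.83, 2.60 and 2.37 with corn oil and 2.38, 1.56 and 2.62 with carbon tetrachloride, so that carbon tetrachloride replicate 2 was the lowest. Or4f7c lay at 1.46 to 1.77, Or6al1 at 0.85 to 1.09, Or2t48e at 0.75 to 0.92 and Or13a27e at 0.63 to 1.06 over all 6 rats. Or8w1b, Or10am5, Or1f26 and Or4d6 lay close to the 75th percentile and their groups overlapped. These levels depend on the probe: with detected probes averaged, the mean went from 0.14 to -2.08 in Or10am5, from 0.12 to -2.73 in Or13p4 and from 3.27 to 2.37 in Or2ak6. Or2t47d read -0.49, 0.039 and -0.59 with corn oil and -0.65, -0.59 and -0.64 with carbon tetrachloride, with corn oil replicate 2 as the highest. Or4a80 and Or6z1 lay at -0.84 to -0.42. Several of these levels rest on 1 of 2 probes. The second probes of Or6al1, Or4d6, Or2t47d and Or4a80 were above background on 0 arrays, at means of -8.03, -7.61, -7.81 and -8.14. The second probe of Or6z1 was above background on 1 array, at a mean of -7.64. Only Or2n1el1 and Or13p4 among these 15 had an unadjusted p under 0.05, and both are described with the comparison. Of the 217 members on all arrays, 87 had a range under 0.5 across the 6 rats, and the median range was 0.56.

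**Figure D3:**
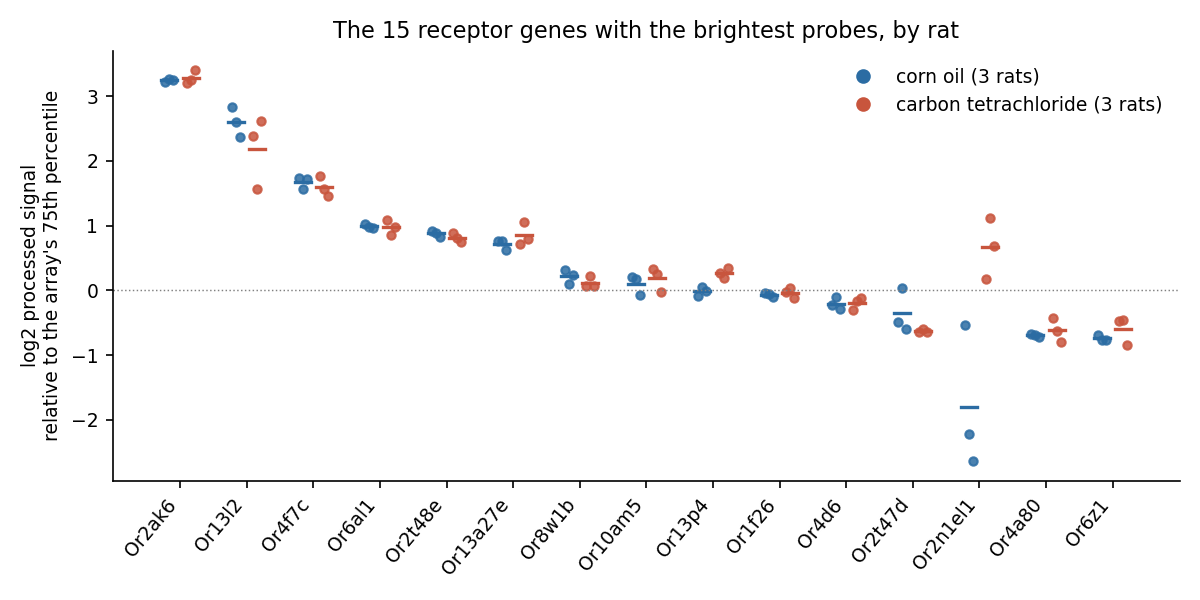
Log2 processed signal relative to the array's 75th percentile for the 15 receptor genes with the brightest probes, one point per rat and a line at each group mean of 3 rats. Or2ak6 lies at 3.21 to 3.40 in all rats, and Or2n1el1 has the widest spread, from -2.64 to 1.12.

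Carbon tetrachloride moved no receptor gene past the threshold. In limma's fit over 31193 tested transcripts, 1 transcript had an adjusted p under 0.05 (0.00321%), and 0 of the 274 receptor genes did, with adjusted p from 0.676 to 1.0. At an unadjusted p under 0.05 the fit called 27 receptor genes, 18 higher and 9 lower after carbon tetrachloride, where 6.3% of all tested transcripts passed. The count was 17 with trend and robust fitting, where 1880 of all tested transcripts passed, beside 1965 in the main fit. With normexp correction it was 18, beside 1970 of all. With no filter on dim probes, which tests more genes, it was 74, beside 2273 of all. Members complete in 1 group only had to differ, so the 217 on all 6 arrays give the fairer view. Of these, 18 (8.29%) had an unadjusted p under 0.05, 10 higher and 8 lower, beside 5.76% of the 29875 transcripts on all 6 arrays.

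By direction, 99 of the 217 read higher (45.6%) and 118 lower, where 52.3% of all such transcripts read higher. The median change was -0.013, beside 0.0075 for all transcripts on 6 arrays, and the median size was 0.12 beside 0.091. The groups did not overlap in 16 members on the higher side (7.37%, beside 7.38% of all) and in 11 on the lower side (5.07%, beside 5.11%). These shares are near the background and are no result about the receptors. Without corn oil replicate 1, 111 members read higher and 106 lower. The within-group SD had a median of 0.20 in members and 0.14 in other transcripts, but it was 0.21 in both where the mean lay between -4.54 and -2.79 (109 members and 6207 others).

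**Figure D4:**
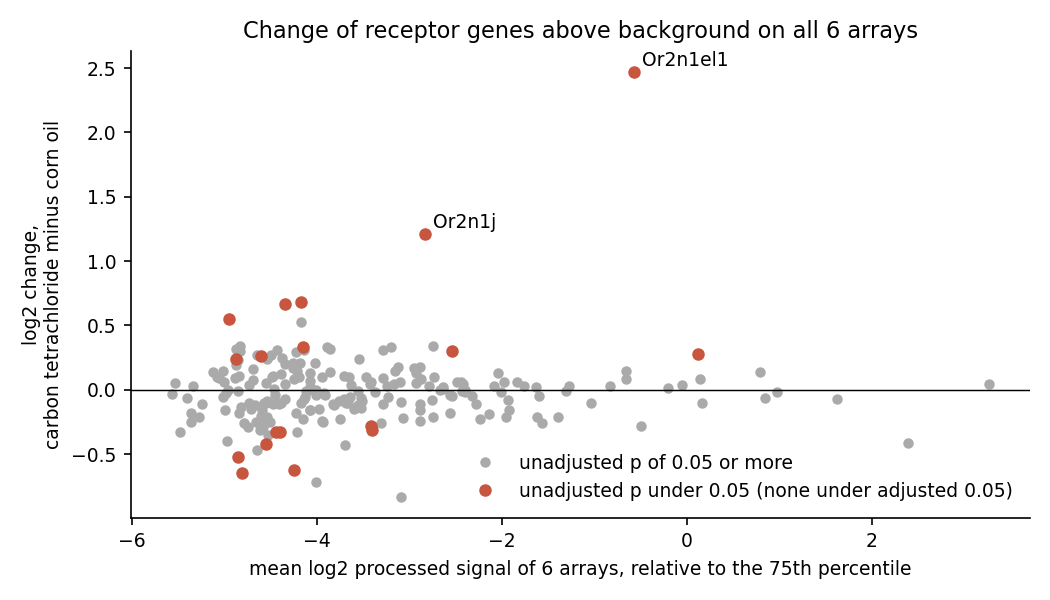
Log2 change (carbon tetrachloride minus corn oil) against mean log2 level for the 217 receptor genes above background on all 6 arrays, with the 18 at an unadjusted p under 0.05 in red. Most changes lie close to 0, and Or2n1el1 (2.47) and Or2n1j (1.21) stand highest; none passed an adjusted p of 0.05.

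The largest difference of any member was in Or2n1el1, a gene of the Or2n1 subfamily represented by 1 probe. It read -0.54, -2.22 and -2.64 with corn oil and 0.18, 1.12 and 0.69 with carbon tetrachloride. All treated rats were above all controls, corn oil replicate 1 being the control nearest to them. The difference was 2.47 ± 0.57 on the log2 scale, with an adjusted p of 0.697 by limma. Without corn oil replicate 1 it was 3.10 ± 0.30, with an adjusted p of 0.489.

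Or2n1j, of the same subfamily, read -2.87, -3.60 and -3.84 with corn oil and -2.53, -1.93 and -2.22 with carbon tetrachloride. Its 6 arrays stood in the same order as those of Or2n1el1. The difference was 1.21 ± 0.29, with an adjusted p of 0.697 by limma, and 1.49 ± 0.20 without corn oil replicate 1. With background correction by normexp it was 0.76. A second probe of Or2n1j was above background on 0 arrays.

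The Or2n1 subfamily was looked at as a whole after these values had been seen. Of its 9 genes on the array 5 were detected. Or2n1e read -4.17, -6.14 and -5.73 with corn oil, where 2 of 3 arrays were above background, and -3.75, -2.76 and -2.66 with carbon tetrachloride. It was detected through the carbon tetrachloride group only and so had to differ, and corn oil replicate 2 was not measured above background, so no size is given and it adds no support to the other genes. Corn oil replicate 1 was the nearest control. Or2n1i, whose first coding bases equal those of Or2n1j, differed by 0.32 ± 0.21, and Or2n1l by -0.10 ± 0.22, and in both the groups overlapped. Or2n1, Or2n1g and Or2n1h were above background on 0 arrays. Or2n1n had 1 probe above background on 1 corn oil array. Its other probe, above background on none, read -6.82, -6.54 and -6.32 with corn oil and -7.49, -7.83 and -7.73 with carbon tetrachloride, the opposite order to Or2n1el1. In the gene table Tmlhe, an enzyme of carnitine synthesis, lies beside Or2n1el1, and the chloride channel gene Clic2 lies beside Or2n1e. They differed by 0.15 ± 0.19 and 0.0087 ± 0.18.

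**Figure D5:**
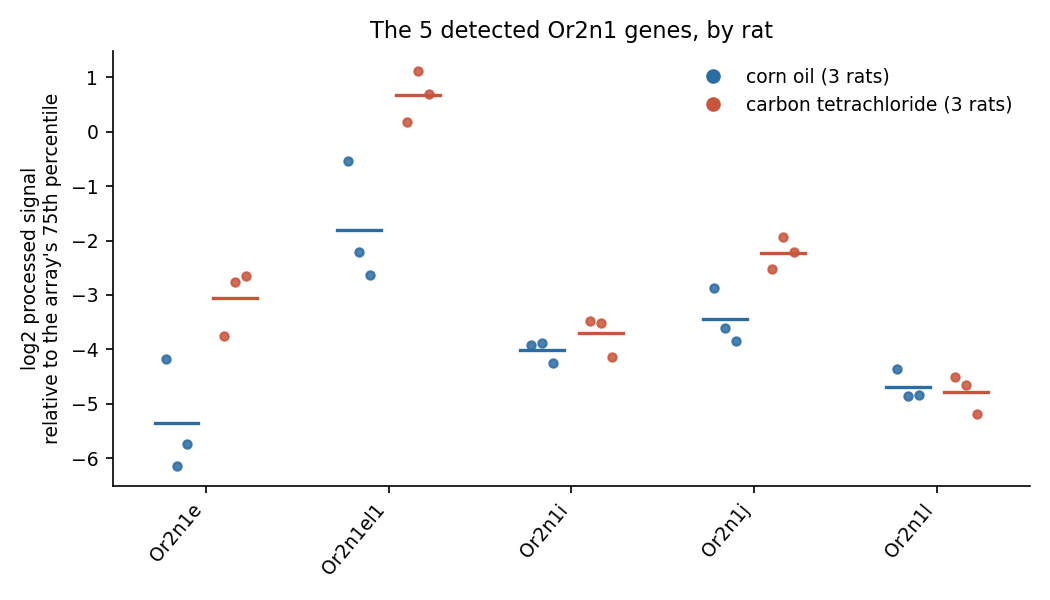
Log2 processed signal relative to the array's 75th percentile for the 5 detected Or2n1 genes, one point per rat and a line at each group mean of 3 rats. In Or2n1el1 and Or2n1j, detected on all 6 arrays, all carbon tetrachloride points lie above all corn oil points, and in Or2n1i and Or2n1l the groups overlap. Or2n1e was detected through the carbon tetrachloride group only and so had to differ.

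Among other members on all 6 arrays, the smallest unadjusted p on the higher side went with small shifts. Or5w11 read -2.71, -2.68 and -2.67 with corn oil and -2.39, -2.41 and -2.37 with carbon tetrachloride, 0.30 ± 0.060 higher with an adjusted p of 0.689 by limma. Or13p4 read -0.088, 0.048 and -0.0062, then 0.27, 0.19 and 0.34, a difference of 0.28 ± 0.075. Its second probe, faint at -6.27 to -5.20, differed by 0.076 ± 0.28. Or13p5, of the same subfamily, read -4.06, -4.54 and -4.94, then -4.05, -3.78 and -3.67, a difference of 0.68 ± 0.24. Or5b123b differed by 0.67 ± 0.20, from -4.96 to -4.35 in controls and -4.24 to -3.75 in treated rats. Its second probe was above background on 0 arrays. With normexp correction Or13p5 differed by 0.33 and Or5b123b by 0.31, and with the probes averaged Or13p4 differed by 0.18.

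On the lower side Or8k39 led. It read -4.68, -4.34 and -4.43 with corn oil and -5.06, -5.03 and -5.31 with carbon tetrachloride, a difference of -0.65 ± 0.13 with an adjusted p of 0.689 by limma. Or8s5 was tighter, at -4.15, -4.27 and -4.29, then -4.56, -4.55 and -4.59, a difference of -0.33 ± 0.069. Or1j15 differed by -0.28 ± 0.079, Or4d10c by -0.33 ± 0.10, Or51q1d, a class I receptor, by -0.52 ± 0.15 and Or2f1 by -0.42 ± 0.15. In each of these 6 genes the groups did not overlap, which is how they were chosen. With normexp correction their differences shrank to between -0.18 and -0.065. The second probes of Or8k39, Or8s5 and Or51q1d were above background on 0 arrays.

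Or6b1 and Or8g20b were the 2 members above background on all carbon tetrachloride arrays and on 0 corn oil arrays, so the control level has only a bound. Both were detected through the carbon tetrachloride group only, so the detection rule favoured a higher reading there. Their values are a description and add no support for a change. Or6b1 read -5.54, -5.18 and -5.31 in treated rats and -6.44, -6.52 and -6.04 in controls. That is higher by at least 1.47-fold, and limma's adjusted p was 0.676. Its second probe was above background on 0 arrays. Or8g20b read -5.28, -5.76 and -5.81 against -6.02, -5.89 and -6.25. That is higher by at least 1.25-fold, and limma's adjusted p was 0.791. The fitted log2 difference of Or8g20b fell from 0.44 to 0.27 without carbon tetrachloride replicate 1. With normexp correction the fitted log2 differences of Or6b1 and Or8g20b were 0.17 and 0.11. No member was above background on all corn oil arrays and on 0 carbon tetrachloride arrays.

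Where a gene had more than 1 detected probe, the probes pointed the same way in 8 of 19 genes. Both probes were above background on all 6 arrays in 14 of the 19. In the rest a probe was complete in 1 group only, so the detection rule favoured a direction for it. In Or4d10 and Or52z1 it favoured opposite directions, as 1 probe was complete with carbon tetrachloride only and the other with corn oil only. The 4 genes that follow had both probes above background on all 6 arrays. In Olr1454 one probe read -2.96 to -2.55 over the 6 rats and differed by -0.080 ± 0.12, while the other read -3.50 to -2.92 and differed by 0.31 ± 0.14. Or6b13 gave 0.0027 ± 0.088 and -0.65 ± 0.35. Or10am5 gave 0.085 ± 0.13 from a probe near the 75th percentile and -0.091 ± 0.14 from a probe near -4.30, and Or51b6 gave -0.093 ± 0.14 and 0.13 ± 0.19. None of these probes passed the test after adjustment.

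In a few members the spread came mostly from 1 rat. Or4a69 read -1.19 in corn oil replicate 1, which is 2.17 above the next array, and -3.62 to -3.36 in the other rats. Its difference of -0.83 ± 0.61 was -0.088 ± 0.11 without that array. Or13a18b read -2.13 in corn oil replicate 3 and -4.60 to -4.18 elsewhere. Or1f20e read -3.01 in carbon tetrachloride replicate 2, 1.30 above the next, and Or4b1 read -4.65 in carbon tetrachloride replicate 3, 1.01 below the next. In all, 11 of the 217 members had 1 array at least 0.5 above the next, and that array was corn oil replicate 1 in 5 of them. By any margin, corn oil replicate 1 was the highest array in 61 of the 217, and each other array in 18 to 45. Of 99 receptor genes above background on exactly 1 array, 25 were so in corn oil replicate 1 and 10 to 20 in each of the other rats. In Or5i1 corn oil replicate 3 was left out of the fit because its spot carried an outlier flag.

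The machinery that serves these receptors in the nose was partly detected in the cortex, and no gene of it passed the test between groups. Of 16 olfactory transduction genes on the array 11 were tested (68.8%), where 83.4% of other genes with a symbol were detected. Among the 11, 5 read higher and 6 lower, with a median change of -0.019. In limma's fit 0 had an adjusted or unadjusted p under 0.05. Adcy3 and Cngb1, both among the higher, were complete in the carbon tetrachloride group only, so the detection rule favoured that direction. The other 9 were above background on all 6 arrays. Gnal read -1.77 to -1.46 and Gng13, a gamma subunit also used in taste cells, 2.69 to 4.99 with the lowest value in corn oil replicate 2. Adcy3 was faint, at -5.67 to -5.18, and Cngb1 read -5.75 to -5.01. The channel subunits Cnga2 and Cnga4, as well as Omp and Stoml3 of the same list, were above background on 0 arrays.

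Of 11 genes for receptor trafficking, 10 were tested, 6 higher and 4 lower, and 0 passed after adjustment. Rtp1, which brings receptors to the cell surface, read -5.54 to -4.16. Rtp4, an interferon-induced relative, was the only one with an unadjusted p under 0.05: it read -0.0086, 1.09 and 1.52 with corn oil and -0.078, 0.027 and -0.76 with carbon tetrachloride, a difference of -1.14 ± 0.43 with an adjusted p of 0.79 by limma. Its groups overlapped through corn oil replicate 1. Of 12 genes for receptor choice and neuron identity, 8 were tested and 0 passed, 2 higher and 6 lower. Ebf2, among the lower, was complete in the corn oil group only, so the detection rule favoured that direction. The homeodomain factor Lhx2 and the factors Ebf3, Neurog1 and Neurod1 were above background on 0 arrays, while Emx2, a factor of kidney development too, read 3.24 to 3.62.

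Genes of other chemosensory receptor families were detected too. Rat vomeronasal type 1 receptors had 12 of 49 genes detected (24.5%) and type 2 receptors 12 of 67 (17.9%). Taste receptors had 5 of 34 (14.7%), and trace amine receptors 2 of 16 (12.5%), of which Taar8c was the brighter reading at -2.92 to -2.58. None of these passed after adjustment in limma's fit. At an unadjusted p under 0.05 there were 2, 1, 0 and 0 genes in turn, where 5.76% of all transcripts on 6 arrays passed. Counts this small are no result about these families. The 2 vomeronasal type 1 receptors counted went in opposite directions, Vom1r100 by -0.36 ± 0.068 and Vom1r104 by 0.43 ± 0.15.

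Markers of T cells stood beside these receptors on the same arrays. Of 7 T cell markers, 4 were above background on all 6 arrays. These 4 (Cd3d, Cd3g, Cd8a and Cd8b) all read lower after carbon tetrachloride, with a median change of -0.84 and an unadjusted p under 0.05 each, where 5.76% of all transcripts on 6 arrays passed, and none passed after adjustment. Cd3e, Cd5 and Cd2 were complete in the corn oil group only, so the detection rule favoured a lower reading after treatment. Cd8b read -2.22 to -1.98 with corn oil and -3.16 to -3.06 with carbon tetrachloride. Their part in the receptor results was not tested. In these bulk samples fewer cells of a type and less RNA per cell cannot be told apart.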

How the data were processed

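The scanner files hold spot intensity as deposited by the authors. The software was Agilent Feature Extraction, version 10.7.1.1 per the file headers and 10.7 per the submitters' processing notes, and the processed signal is background-subtracted. The series' value table, also deposited by the authors, is an intensity scaled per array. It has 0 columns of other samples. The members and lists were chosen with earlier results of these data known.

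Processed signals were put on a log2 scale and centred on the 75th percentile of their array. The 1439 control spots and outlier-flagged spots were left out. The detection rule of the members also chose the tested probes (42400 of 61537). Accessions were matched without version to RefSeq genes (GRCr8) for 28206 probes (45.8%). Each gene was represented by its brightest tested probe. A bound sets the treated mean against the dimmest signal called above background or the probe's own, whichever is higher. The test was limma's (version 3.58.1, R 4.3.3), two-sided with Benjamini-Hochberg adjustment, and the scripts were tested on simulated data. Python 3.11.15 made the counts. Having 3 rats in each group limits the precision.

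Named genes were the 15 brightest members; up to 6 higher and 6 lower on all 6 arrays with the smallest unadjusted p and no overlap; members above background in 1 group only; studied receptors; and up to 4 with probes of opposite direction. The planned mean-signal column was not in the files, so normexp (offset 50) used median signals. The planned mouse vomeronasal symbols matched 0 genes, so rat symbols were added after the data had been seen. Alternatives covered scaling, background, filters, probe averaging, blocks and leaving out each array. Corn oil replicates 1 to 3 and carbon tetrachloride replicates 1 and 2 shared slide 1, and carbon tetrachloride replicate 3 lay on slide 2, so within slide 1 the comparison is the one without that array.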

Additional observations from a re-analysis of the deposited data

How the results depend on the processing

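No receptor gene passed an adjusted p of 0.05 under any of the alternatives run. The count of all transcripts that did was 1, and it was 0 with normexp, with the replicate block, with the slide as a block, within slide 1, with trend and robust fitting, with no filter on dim probes and with a filter for all 6 arrays. Leaving out each array gave 0 to 2. Receptor genes at an unadjusted p under 0.05 in limma's fit numbered 27, beside 1965 of all transcripts. They numbered 17 beside 1880 with trend and robust fitting, and 74 beside 2273 with no filter, which tests more genes. Normexp gave 18 beside 1970. Leaving out each array gave 22 to 28, beside 1520 to 2323 of all transcripts. The number of detected receptor genes was 274, and 448 with a probe above background on at least 1 array. No accession was listed for several genes, so keeping accessions of 1 gene left 274. The median change stayed within 0.065, the SD between arrays, from -0.044 to 0.022. Leaving out 1 array gave 277 to 302 detected genes, and 9.29% to 11.9% of receptor genes with 2 probes then had both detected. These last, the percent in the middle band and that for detection on all 6 arrays (8.16%) were chosen after seeing the data. Of 45 levels of the brightest members under other settings, 36 stayed within 1 SD. All 210 values of 14 named changes kept their direction, with a lowest adjusted p of 0.326 by limma. Much of this was fixed in advance. As the groups of these genes do not overlap, leaving out an array, the slide block and slide 1 alone could not reverse a direction. The replicate block and trend and robust fitting gave the same differences as the main fit. Same-numbered rats did not deviate together (correlations -0.0233, -0.0972 and -0.079), and the main fit used no pairing. So few values, not compared with those of other pairs, cannot exclude one. With the replicate block limma gave 28 receptor genes at an unadjusted p under 0.05, beside 1845 of all transcripts. Signals near 50 or below are compressed by the normexp offset, which limits what faint receptors can show.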
